A study of Mus musculus with 4 samples.

Results

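The Notch pathway genes were examined for occupancy by Eya1, a transcriptional coactivator and phosphatase that is needed for nephron progenitors and does not bind DNA on its own. They were the receptors Notch1, Notch2 and Notch3, the ligands Dll1, Jag1 and Jag2, the target genes Hes1, Hey1 and Heyl, and Lfng, an enzyme that modifies the receptors. They were chosen by name, and they made up 10 of 21938 protein-coding genes outside the mitochondrial genome. Occupancy was read from lists of peaks obtained by chromatin immunoprecipitation and sequencing (ChIP-seq) of mouse kidneys at E13.5, in days of embryonic development. All samples came from mice with an Eya1 HA-FLAG knockin allele on a mixed C57BL/6J and 129/Sv background, and 80 kidneys were used for an assay. The series held 4 samples, namely 2 Eya1 ChIP replicates pulled down with anti-FLAG M2 beads, 1 input control and 1 IgG control. Kidneys were untreated as far as the labels state, and the zygosity of the allele was not given in the sources used here. The chromatin came from whole kidneys, so a peak cannot be assigned to nephron progenitors, ureteric bud or stroma. Peak lists hold no expression values, and the kidney label could not be checked against marker genes.

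The lists held 8452 peaks between them, with a median width of 1069 bp in replicate 1 and 188 bp in replicate 2. Of these, 4041 peaks of replicate 1 (94.5% of its list) and 3534 of replicate 2 (84.6%) lay within 1 kb of an annotated transcription start site (TSS). The lists give positions only, so the depth and strength behind a peak are unknown, and neither control was analysed here. Nothing in the sources used here says that the replicates came from separate pools of kidneys, so differences between the lists may be technical.

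Notch signalling passes between touching cells. A ligand of the Jagged or Delta-like family on 1 cell binds a Notch receptor on its neighbour, proteases then release the intracellular part of the receptor, and this part joins the DNA-binding protein RBPJ to switch on targets such as the Hes and Hey repressors. In the developing kidney the pathway acts as progenitors become the renal vesicle and then the segmented nephron, and it is known above all for the formation of proximal segments. In people, loss of function of JAG1 or NOTCH2 causes Alagille syndrome, in which the kidney can be affected.

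Eya1 peaks lay near the start sites of Notch2 and Jag1 and of no other member. The Notch2 peak was in the replicate 1 list, was 1301 bp wide and covered the start site. The Jag1 peak was in the replicate 2 list, was 168 bp wide and ended 567 bp before the start site. No member had a promoter peak in both lists. All 3 target genes, and Lfng, were without one.

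The sequence of the whole Jag1 peak is given because it is 1 of the 2 member peaks and short enough to read in full. It is from the GRCm38 genome (mm10), chr2:137117211-137117378, and is written on the minus strand, along which Jag1 is transcribed. Capitals mark the letters TGGGAA, the core of the RBPJ recognition sequence, or their reverse complement.
Jag1 peak: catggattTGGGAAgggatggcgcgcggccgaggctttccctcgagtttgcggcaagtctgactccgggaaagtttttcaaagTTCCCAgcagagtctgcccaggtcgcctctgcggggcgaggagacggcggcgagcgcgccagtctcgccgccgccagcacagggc

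The peak held 2 matches to the core, 1 on each strand, and 18 CpG dinucleotides. In windows of 200 bp on the peak midpoint, 9.71% of the 3534 promoter peaks of replicate 2 held at least 1 match. No match to the longer forms CGTGGGAA and TGTGGGAA, which contain the core, or CGTGAGAA and TGTGAGAA, which do not, was present in the Jag1 window. A match is a property of the sequence and not a measurement of RBPJ binding.

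The next sequences come from the RefSeq promoter table for GRCm38.p6, cut where the first exon of the transcript begins. For Notch1 this is an internal start site, so its stretch lies inside the gene model. They set a promoter with a peak (Notch2) beside CpG-containing promoters of members without one (Notch1 and Lfng). Capitals mark the GC box GGGCGG, the recognition sequence of SP family factors, in Notch2 and Notch1, and the RBPJ core in Lfng, on either strand. Notch2 lies at chr3:98013288-98013526 on the plus strand, inside the replicate 1 peak, Notch1 at chr2:26503825-26504072 on the minus strand, and Lfng at chr5:140607091-140607319 on the plus strand.
Notch2 promoter: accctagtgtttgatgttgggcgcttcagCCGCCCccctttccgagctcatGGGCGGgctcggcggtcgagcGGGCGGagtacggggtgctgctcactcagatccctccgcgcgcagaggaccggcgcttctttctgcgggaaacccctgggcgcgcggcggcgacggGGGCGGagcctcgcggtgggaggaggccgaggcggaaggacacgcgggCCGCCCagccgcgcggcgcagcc
Notch1 promoter: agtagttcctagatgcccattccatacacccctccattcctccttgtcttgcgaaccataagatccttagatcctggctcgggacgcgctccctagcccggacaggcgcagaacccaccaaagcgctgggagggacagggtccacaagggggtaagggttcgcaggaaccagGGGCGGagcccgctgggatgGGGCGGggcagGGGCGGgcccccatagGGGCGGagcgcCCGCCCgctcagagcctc
Lfng promoter: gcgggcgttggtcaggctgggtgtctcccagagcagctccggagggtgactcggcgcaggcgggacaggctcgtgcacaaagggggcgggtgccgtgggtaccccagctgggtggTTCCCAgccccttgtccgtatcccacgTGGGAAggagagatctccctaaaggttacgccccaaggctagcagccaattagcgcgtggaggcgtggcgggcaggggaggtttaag

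These stretches held 5 GC boxes in Notch2, 5 in Notch1 and 2 RBPJ cores in Lfng, with 34, 16 and 16 CpG, respectively. So a cluster of GC boxes was found upstream of a start site with a peak and of a start site without one. Over the 7 of 10 members found in the RefSeq table, the full 300-base promoters of Notch2, Notch1, Jag2, Notch3 and Lfng held 7, 5, 5, 4 and 1 GC boxes, and those of Jag1 and Dll1 held none. Of all 32851 RefSeq promoters, 35.7% held at least 1. The target genes Hes1, Hey1 and Heyl had no RefSeq promoter there, so their promoters were not searched for any motif. Among the 7 members searched, the RBPJ core was present in the Lfng promoter only. There, 1 of its 2 matches was also the longer form CGTGGGAA. The core was in 25.6% of all promoters and a longer form in 4.3%.

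MEF3, the recognition sequence of DNA-binding partners of Eya1 such as Six2, was also searched. As TCAGGTT, it occurred 1 time in the Jag1 promoter at chr2:137116471-137116770, against 4.07% of all promoters, and in no other matched member. It was in neither member peak window, and 1.29% of replicate 1 and 1.16% of replicate 2 promoter peaks held it. RE1, the element recognised by the repressor REST, was searched by its 17-bp consensus with at most 2 mismatches and was found in neither window and in none of the matched promoters. It was present in 3.12% of promoter peak windows of replicate 1 and 6.31% of replicate 2. A share of all RefSeq promoters with RE1 is not available, so its absence from the matched promoters has no reference. The GC box was in neither member window, while 52.4% of promoter peak windows of replicate 1 and 53.3% of replicate 2 held it. The Jag1 window contains its whole peak, but the Notch2 window is 200 bp of a 1301-bp peak. The Notch2 promoter with 7 GC boxes lies inside that peak and outside the window. So for each of these motifs, absence from the Notch2 window is not absence from the Notch2 peak.

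**Figure D1:**
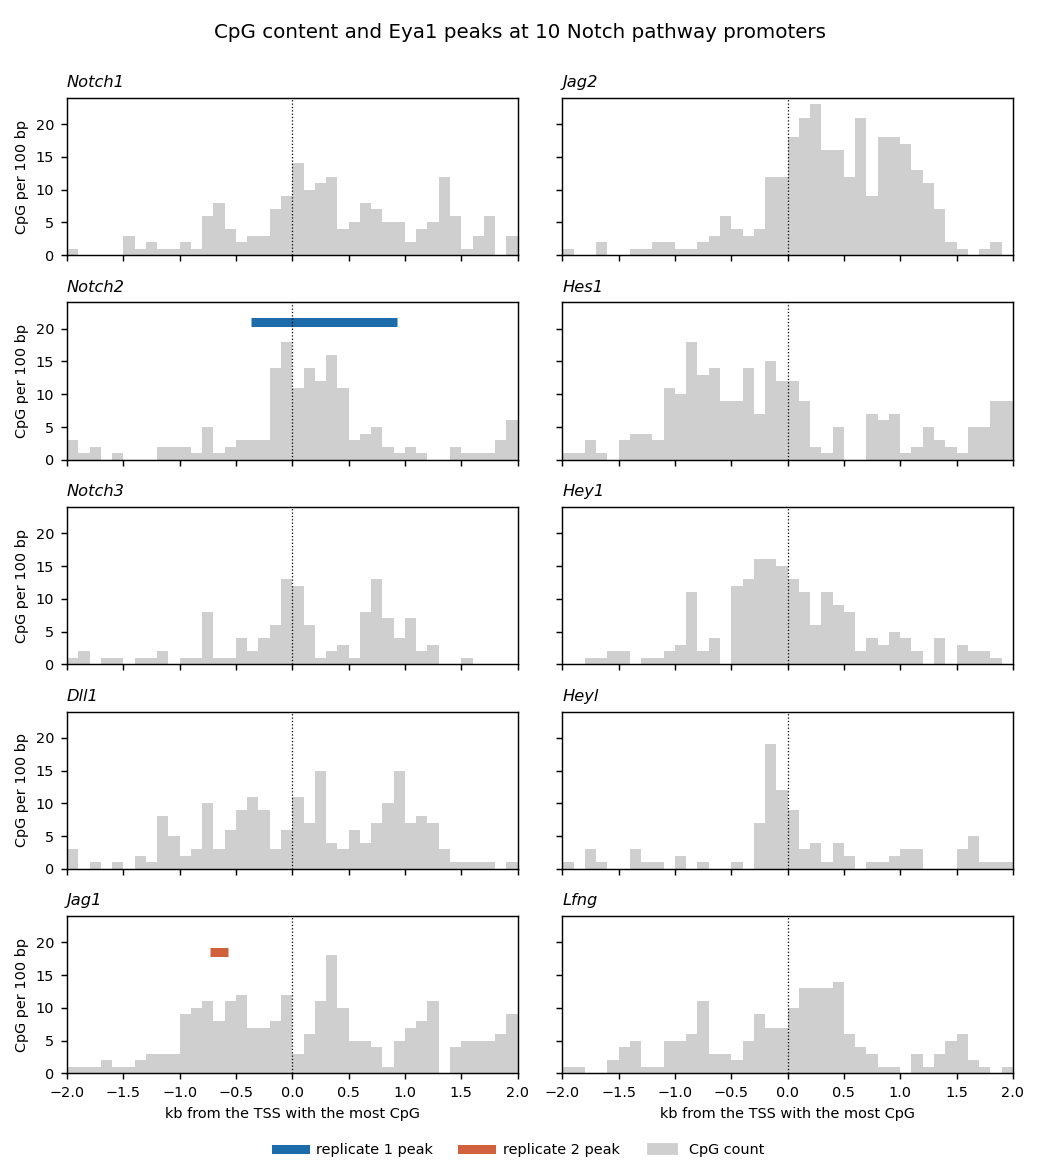
CpG content and Eya1 peaks around the 10 genes. The x axis is the distance in kb from the annotated start site with the most CpG, positive along transcription, and the y axis is the number of CpG per 100 bp in bins of 100 bp. Bars at the top are peaks of replicate 1 (blue) and replicate 2 (orange). Only Notch2 and Jag1 have a bar, of 1301 and 168 bp, while CpG-rich stretches lie at other members, Jag2 and Hey1 among them.

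Counts of members were read against all protein-coding genes. In replicate 1, 1 of 10 members had a peak within 1 kb of a TSS, and the share over all genes was 20.3%. In replicate 2, 1 of 10 members had one, against 14.7% of all genes. For a peak in either list the count was 2 of 10 against 23.5%, and for a peak in both lists it was 0 of 10 against 11.5%. With 10 genes, a count of 2 is near the share of all genes, so it is not a result about the Notch genes as a group.

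Promoter peaks of either list were far more frequent at genes rich in CpG. Genes were placed in deciles of the number of CpG within 500 bp to each side of the gene's 5′ end. In the lowest decile 1.11% of genes had a promoter peak in either list, and in the highest, with 93 to 172 CpG, 60.7% did. The highest decile held Notch2, Jag1, Jag2, Hey1 and Lfng. Hes1 was in decile 9, in which 50.4% of genes had a peak. Notch3, Dll1 and Heyl were in decile 6, at 21.3%, and Notch1 was in decile 4, at 7.53%.

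**Figure D2:**
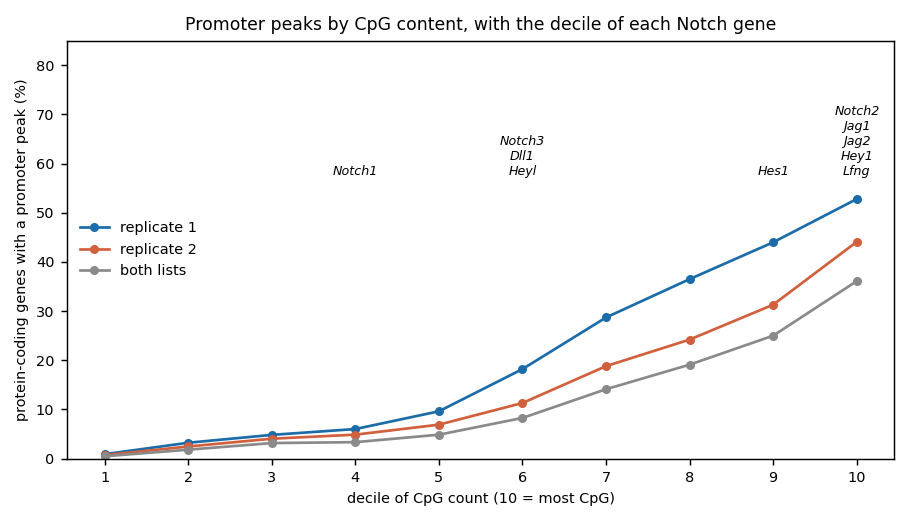
Percentage of protein-coding genes with an Eya1 promoter peak (y axis) by decile of CpG count (x axis, 10 is the most CpG), for replicate 1, replicate 2 and both lists. Names stand above the decile of each Notch gene and not at a height of their own. The share rises from under 1% in decile 1 to 52.8% in replicate 1 and 44.1% in replicate 2 in decile 10, where 5 of the 10 members lie.

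Each member was therefore set beside the 500 protein-coding genes nearest to it in CpG count, here called its CpG-similar promoters. The median of the 10 shares with a peak in either list was 53.3% (range 8.4% to 67.8%), and their mean was 44.4%. For replicate 1 the median was 46.1% and the mean 38.7%, and for replicate 2 they were 34.8% and 30.1%. For both lists the median was 27.6% and the mean 24.3%. The members with a peak, 2 of 10 in either list and 0 of 10 in both, were thus fewer than those means, a description of 10 genes for which no test was made. Distances to the nearest peak are measured from the nearest annotated start site of the gene. The intervals given below are exact Clopper-Pearson 95% intervals and cover counting error over the 500 promoters only.

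Notch2 (ENSMUSG00000027878.11) lies on chromosome 3 from 98013527 to 98150361 on the plus strand. It is the receptor needed for proximal nephron segments in the mouse. Its replicate 1 peak ran from 98013158 to 98014458, from 369 bp before to 931 bp after the gene's 5′ end. Of its 1301 bp, 369 were upstream, 245 exonic (161 of them UTR) and 687 intronic, and no start site of another gene lay within 1 kb. The peak held 116 CpG, or 8.92 per 100 bp, and its GC content was 64.3%. In replicate 2 the nearest peak was 403 kb away, at Chd1l.

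The Notch2 promoter had 105 CpG, more than 94.5% of genes. Of its CpG-similar promoters, 50.8% (interval 46.3% to 55.3%) had a replicate 1 peak and 41.6% (37.2% to 46.1%) a replicate 2 peak. Among the similar genes with a replicate 1 peak, 168 of 254 (66.1%) also had one in replicate 2, so the single-list state of Notch2 was shared by the remainder. Its peak was of ordinary width. It ranked at percentile 51.4 of the 259 replicate 1 peaks at similar promoters, which had a median of 1293 bp, and at percentile 65.3 of all 4041 promoter peaks.

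Notch1 (ENSMUSG00000026923.15), which acts with Notch2 in nephron formation, lies on chromosome 2 from 26457903 to 26516663 on the minus strand. It had no peak within 1 kb of any of its 11 start sites and none in its body. The nearest peaks, 16.5 kb from a Notch1 start site in replicate 1 and 17.6 kb in replicate 2, lay at Sec16a. Around its 5′ end Notch1 had only 19 CpG, and 8.4% (6.12% to 11.2%) of similar promoters had a peak in either list. That 5′ end belongs to a transcript that begins 12.8 kb upstream of the start site with the most CpG, which had 77. With every gene taken at its start site with the most CpG, 45.6% of similar promoters had a peak. The share of genes against which the absence at Notch1 is read therefore depends on the start site taken.

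Notch3 (ENSMUSG00000038146.8), best known as the receptor of vascular smooth muscle, lies on chromosome 17 from 32120820 to 32166852 on the minus strand. It had no peak at its promoter or in its body. With 53 CpG, 30.8% (26.8% to 35.1%) of its similar promoters had a peak. When every gene was taken at its start site with the most CpG, the share was 18.8%.

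Jag1 (ENSMUSG00000027276.7), the Jagged ligand mutated in Alagille syndrome, lies on chromosome 2 from 137081456 to 137116644 on the minus strand. Its replicate 2 peak, shown above in full, spanned 734 to 567 bp before the 5′ end and lay wholly upstream of the gene, with 10.7 CpG per 100 bp and a GC content of 66.1%. In replicate 1 the nearest peak was 195 kb from a Jag1 start site, at Mkks and Slx4ip. The Jag1 promoter had 96 CpG, and 47.4% (42.9% to 51.9%) of similar promoters had a replicate 1 peak and 37.2% (33% to 41.6%) a replicate 2 peak.

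Presence in replicate 2 alone was the less common state. Of the 186 promoters similar to Jag1 that had a replicate 2 peak, 147 (79%) also had one in replicate 1, and over all genes 2520 of 3227 (78.1%) did. The Jag1 peak ranked at percentile 37.4 by width of 230 replicate 2 peaks at similar promoters, whose median was 197.5 bp. It was narrower than the median of its list and did not reach within 500 bp of a start site, and under a rule of 500 bp Jag1 had no promoter peak.

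Jag2 (ENSMUSG00000002799.6), a second Jagged ligand, lies on chromosome 12 from 112907819 to 112929776 on the minus strand. It had the most CpG of all members, 131, more than 98.8% of genes, and 67.8% (63.5% to 71.9%) of its similar promoters had a peak in either list. It had none within 1 kb of its 10 start sites. The nearest peak of replicate 1 was 12 kb upstream, at Nudt14, and that of replicate 2 was 70.5 kb upstream, at Brf1.

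Dll1 (ENSMUSG00000014773.13), the Delta-like ligand present in the renal vesicle, lies on chromosome 17 from 15367354 to 15376872 on the minus strand. It had no peak at its 6 start sites, and the nearest were 123 kb away in replicate 1, at Psmb1 and Tbp, and 328 kb in replicate 2, at Chd1. Its 5′ end had 51 CpG, and 24.6% (20.9% to 28.6%) of similar promoters had a peak. A start site 0.896 kb further along had 78 CpG, and by such sites the share was 45.4%.

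The target genes encode repressors with a basic helix-loop-helix domain. Hes1 (ENSMUSG00000022528.8) lies on chromosome 16 from 30064384 to 30067796 on the plus strand and was far from any peak, at 321 kb in replicate 1 (Atp13a3) and 1130 kb in replicate 2 (Acap2). A nearer peak was found for 73.7% of protein-coding genes in replicate 1 and for 88.2% in replicate 2. Its promoter was CpG-rich, with 86 CpG, and 52.8% (48.3% to 57.2%) of similar promoters had a peak in either list.

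Hey1 (ENSMUSG00000040289.8) lies on chromosome 3 from 8663359 to 8667256 on the minus strand. It had 124 CpG, and 65% (60.6% to 69.2%) of similar promoters had a peak, while Hey1 had none. Its nearest peaks were 256 kb away in replicate 1, at Mrps28, and 158 kb away in replicate 2. Heyl (ENSMUSG00000032744.4) lies on chromosome 4 from 123233556 to 123249875 on the plus strand. It had 52 CpG and a similar share of 26.8% (23% to 30.9%), and the peaks nearest to its start sites were 171 kb (Macf1) and 348 kb (Cap1) away. Of all protein-coding genes, 70.1% in replicate 1 and 55.9% in replicate 2 had a nearer peak than Hey1. For Heyl these shares were 63.2% and 71.1%.

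Lfng (ENSMUSG00000029570.5), a glycosyltransferase that adds sugar to Notch receptors and shifts their response from Jagged toward Delta-like ligands, lies on chromosome 5 from 140607320 to 140615545 on the plus strand. It had 94 CpG, and 53.8% (49.3% to 58.2%) of similar promoters had a peak. Lfng had none, and the nearest lay 36.2 kb from a Lfng start site in replicate 1, at Ttyh3, and 90.5 kb in replicate 2, at Iqce.

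**Figure D3:**
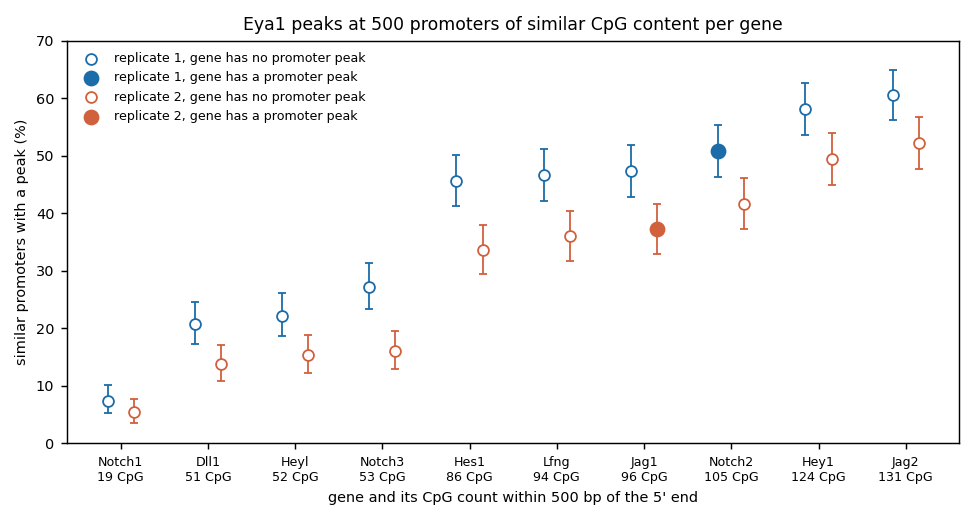
Percentage of 500 promoters of similar CpG content that had an Eya1 peak (y axis), for each of the 10 genes in order of CpG count (x axis), in replicate 1 (blue) and replicate 2 (orange). Filled symbols mark a gene that has a promoter peak itself, and error bars are 95% Clopper-Pearson intervals over promoters. The filled symbols, Notch2 at 50.8% and Jag1 at 37.2%, sit among open symbols of like height, and Jag2 and Hey1 are open at the right end.

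The 4 members with the fewest CpG, Notch1, Dll1, Heyl and Notch3, had no peak, and both members with a peak were in the highest decile. Members without a peak were also found there. Jag2 and Hey1 had more CpG than Notch2, and the similar shares of Lfng and Hes1, 53.8% and 52.8%, were next to the 55.2% (50.7% to 59.6%) of Jag1. In the sum over the 10 genes, peaks covered 1301 bp within 1 kb of the 5′ ends in replicate 1, all at Notch2, and 168 bp in replicate 2, all at Jag1, a mean of 734.5 ± 801 bp (SD, n = 2). No base at these promoters was covered in both lists.

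Peaks away from start sites were counted as well. A gene-body peak over 1 kb from every annotated start site was found in 0 of 10 members, against 1.30% of all genes. With 10 genes, a count of 0 is near that share and is not a result about the members. Any peak that overlapped the gene model was found in 1 of 10, Notch2, against 23.8%. A peak over 1 kb from every start site and within 200 kb of the gene was found for 1 of 10, Hey1, against 13.4% of genes, and with an RE1 match for the same 1 of 10 against 9.45%. This peak, of 170 bp in replicate 2 at chr3:8508157-8508326, was 158 kb from a start site of Hey1 but 1034 bp from the start site of Stmn2, a neuronal gene of microtubule regulation. By position it is a peak near Stmn2.

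**Figure D4:**
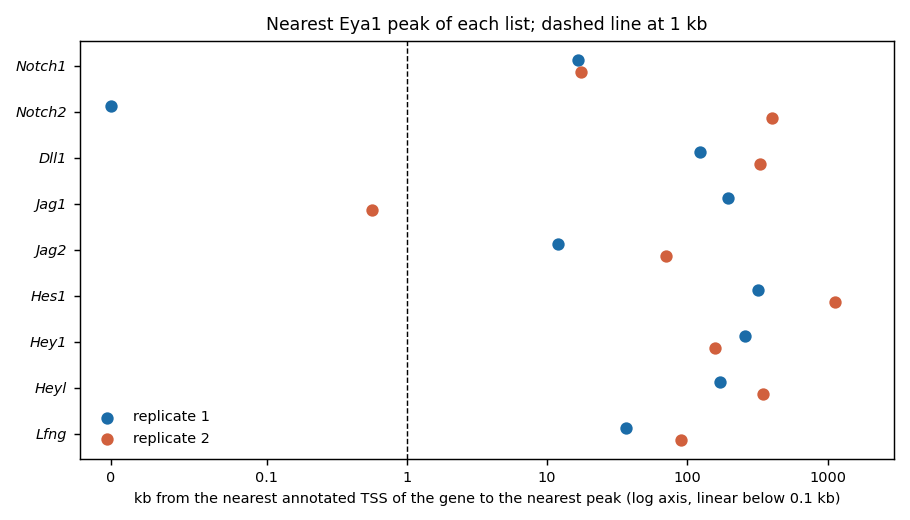
Distance in kb from the nearest annotated start site of the Notch genes other than Notch3 to the nearest peak of replicate 1 (blue) and replicate 2 (orange), on a log axis that is linear close to 0. The dashed line is at 1 kb. Only the Notch2 point of replicate 1, at 0, and the Jag1 point of replicate 2, at 0.567 kb, are left of the line, and the next nearest is Jag2 at 12 kb.

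A wider list of 55 further genes of the pathway was examined in the same way. A promoter peak in either list was found for 23 of 55 (41.8%), against 23.5% of all genes, and the shares of their CpG-similar promoters had a median of 45% and a mean of 37.5%. Peaks were in replicate 1 for 22 (20.3% of all genes), in replicate 2 for 16 (14.7%) and in both for 15 (11.5%), and the mean similar share for both lists was 19%. At start sites with the most CpG the mean was 42.9%. Counts by role follow, as descriptions with no test between roles. Each role held few genes, so no count is a result about its role.

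In the wider list, 0 of 4 ligands, 0 of 1 receptors and 1 of 8 genes of the target family had a promoter peak, against 23.5% of all genes. With so few genes in each role, these counts are not a result about the roles. The receptor Notch4 and the ligands Dlk1, Dlk2, Dll3 and Dll4 had none. The mean similar share of the ligands was 23.8%, or 49.7% when each gene was taken at its start site with the most CpG, and the share of Notch4 was 4.2% or 31%. In the family of Hes, Hey and Bhlhe repressors 1 of 8 had a peak, Hes6, whose replicate 1 peak was 961 bp wide and covered 209 bp within 1 kb of its 5′ end. The mean similar share of that family was 30.9% by either start site. Bhlhe40, Bhlhe41, Hes2 and Hes3 were among those without a promoter peak.

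In the group of RBPJ, its coactivators and histone acetyltransferases, 5 of 7 had a promoter peak in either list, against 23.5% of all genes. The mean similar share was 38.3%, or 47.7% at the start sites with the most CpG. The same 5 had peaks in both lists, beside a mean similar share of 20% and 11.5% of all genes. At Ep300, a histone acetyltransferase, peaks covered 1517 bp within 1 kb of the 5′ end in replicate 1 and 585 bp in replicate 2, at peaks shared with 1110025M09Rik and Gm23880. The values were 1073 and 500 bp at Maml1, the coactivator that bridges Notch and Ep300, 476 and 325 bp at Snw1, and 383 and 125 bp at Crebbp, the paralog of Ep300. Rbpj itself, chosen here after its values were seen, had peaks of 823 bp in replicate 1 and 139 bp in replicate 2 at a start site away from its 5′ end. Maml2 and Maml3 had no promoter peak.

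Corepressors and turnover factors had a peak in either list in 6 of 9 cases, against 23.5% of all genes. Their mean similar share was 54.5% (58.8% at the start sites with the most CpG). In both lists 5 of 9 had a peak, beside a mean similar share of 29.8% and 11.5% of all genes. Coverage was 1530 and 128 bp at the deacetylase Hdac1, 1303 and 245 bp at Ncor1, whose peak is shared with Pigl, and 963 bp and 524 bp at the corepressor Ctbp1. At Ctbp2 it was 1036 bp in replicate 1 and 0 in replicate 2, in which its peaks lay at another start site. Peaks of Ctbp2 in both lists are shared with an annotated start site of Fgfr2, and in replicate 1 also with B930086L07Rik. The gene in 1 list only, named after its values were seen, was the demethylase Kdm5a, with 123 bp in replicate 2 at a peak shared with Ccdc77. Fbxw7, the ubiquitin ligase that ends the signal, Nrarp, a feedback target, and Spen had none.

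Among the glycosyltransferases 2 of 4 had a peak, Pofut1, which adds fucose to Notch and shares its peaks with Plagl2 (1487 and 236 bp), and Rfng, in replicate 1 only (697 bp, shared with Gps1). Mfng and Poglut1 had none. Among 12 trafficking genes 5 had a peak, with 1329 bp at Dtx3, shared with F420014N23Rik, 1130 and 823 bp at Mib1, the ubiquitin ligase of the ligands, 1097 bp at the inhibitor Numb, and 1047 and 189 bp at Mib2. Dtx1, Dtx2, Dtx4 and Neurl1a were among those without one. The mean similar share was 39.6% in both groups, and 35% and 40.1% at the start sites with the most CpG. Over all genes, 23.5% had a promoter peak in either list.

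Of the 10 protease genes 4 had a peak in either list, against 23.5% of all genes. Their mean similar share was 32.2% (39.5% at the start sites with the most CpG). Ncstn, a subunit of gamma-secretase, had 1381 bp in replicate 1, shared with Copa. Adam10, which makes the first ligand-induced cut, had 1354 bp, and Psenen had 523 bp, shared with U2af1l4. Furin, which cuts the receptor during its maturation, had peaks in both lists at a start site away from its 5′ end, and Adam17, Aph1a, Aph1b and Aph1c had none. Where a peak lies at a start site that genes share, the gene it belongs to cannot be told apart.

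Gene-body peaks away from start sites were found in 2 of the 55 genes, against 1.30% of all genes. The Maml3 peak of replicate 1, chr3:52101725-52103430, was 1706 bp wide and lay in an intron 1646 bp from a Maml3 start site, without an RE1 match. The Hes3 peak of replicate 2, chr4:152287039-152287167, was 129 bp wide, overlapped a Hes3 exon 1438 bp from its start site and held an RE1 match. Each was in 1 list only.

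**Figure D5:**
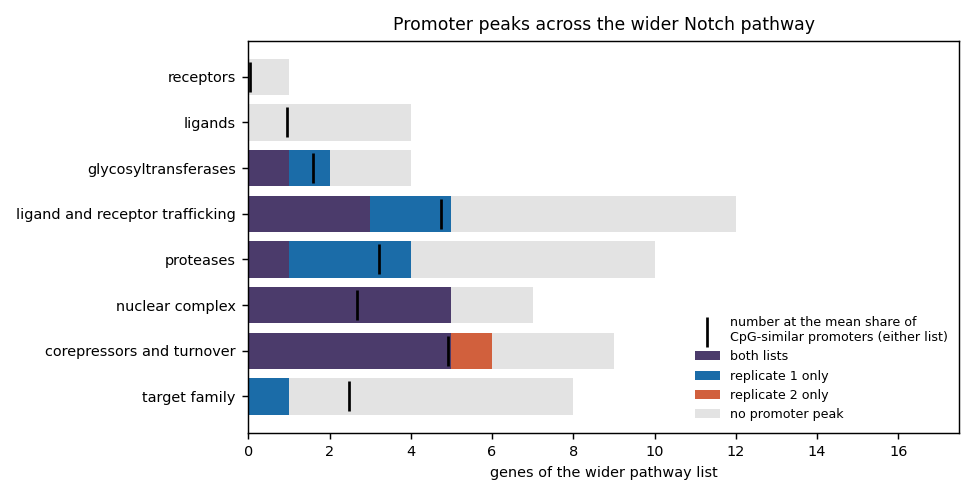
Number of genes in each role of the wider list of 55 (x axis) with an Eya1 promoter peak in both lists (purple), replicate 1 only (blue), replicate 2 only (orange) or none (grey). Black ticks are the number of genes that the mean share of CpG-similar promoters would give for either list. The nuclear complex has 5 of 7 genes with a peak in both lists, beside a mean similar share of 20%. The ligands have 0 of 4, beside 9.95%, and the share over all genes is 11.5%. The similar shares use CpG at the 5′ end. At the start sites with the most CpG, the mean shares for either list are 47.7% for the nuclear complex and 49.7% for the ligands.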

How the data were processed

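Eya1 ChIP-seq was performed on E13.5 kidneys in 2 replicates, with 1 input and 1 IgG sample. Sample titles gave the groups. By their methods, the authors mapped reads to mm10 with Bowtie and ran MACS, with cutoffs that varied, against either control. The submitters' processing notes name HISAT2 instead, and the labels give total RNA as the molecule. The deposited lists hold other values than counts, namely the chromosome, start and end of each peak in 3 columns. The cutoff, and whether a list holds the peaks common to both controls, are not given in the sources used here. No score or depth is given, so the precision of a single peak is unknown.

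From these positions, peaks were assigned to GENCODE M21 genes on GRCm38, printed 1-based. A promoter peak was an interval within 1 kb of any annotated TSS of the gene. CpG was counted within 500 bp to each side of the gene's 5′ end, and each gene was set beside the 500 protein-coding genes nearest in that count (seeded tie-break). Mitochondrial genes and peaks were left out. The peaks nearest to Notch3 are not reported here. Lists without scores allow no test between samples, so all counts are descriptions. Motifs were exact letters on both strands, and RE1 allowed 2 mismatches. Of the wider list, up to 4 genes per role with the largest replicate 1 coverage were named, all genes with a gene-body peak, and up to 4 without a promoter peak in alphabetical order. In the text Fbxw7, Nrarp and Spen were the 3 without one among corepressors and turnover factors, and all members were named. Genes most alike in pattern were to be named for members with peaks in both lists, of which there were 0. The members and lists were chosen with earlier results of these data known.

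Alternatives changed the distance, the width, the CpG window, the number of similar promoters and the replicates used. Taking CpG at the start site with the most CpG was chosen after seeing the data. On simulated data, 100% of 2000 planted genes were called over 21938 genes. Intervals were planted within 1 kb of the 5′ end, so this outcome was fixed and checks the code only. The similar share had a mean error of 1.22 percentage points over 200 genes, with a planted rate set by CpG count alone. Scripts ran under Python 3.11.15 (scipy 1.17.1, numpy 2.4.6, pysam 0.24.0, pandas 2.3.3, matplotlib 3.10.9).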

Additional observations from a re-analysis of the deposited data

How the results depend on the processing

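Of 71 alternatives over the 10 results, 55 left the value within 1.5 times of a count or within its spread and 16 moved it. Some of the 55 could not have moved it. Each of 2 values lies within the SD around their mean, so leaving out a replicate could not move the width rank or the coverage. A count of 0 members in both lists could not change under stricter rules. Members with a peak in either list fell from 2 to 1 with a distance of 500 bp, when the peak had to contain the start site, and when peaks had to be at least as wide as the median of their list, since under each of these the replicate 2 count went from 1 to 0 with the loss of Jag1. Without replicate 1 or without replicate 2 the count was also 1. The median CpG-similar share in either list, 53.3%, became 45.3% when the start site had to be contained, 37% with wide peaks, 47.5% at the start site with the most CpG (chosen after seeing the data), and 34.8% to 46.1% with 1 replicate left out. In both lists, 27.6% became 10.4%, 13.6% and, with CpG counted in 1000 bp to each side, 33.6%. The count of 23 genes of the wider list stayed within 1.5 times. The 0 members with a gene-body peak stayed at 0 with a distance of 500 bp and with 5 kb added to each side of the gene. A distance of 2 kb or leaving out a replicate can only remove peaks, so the 0 could not change there. No paired analysis was possible because there was a single ChIP group and the results come from no test. Depth is unknown, so an absent peak means that none was listed, not that Eya1 was absent.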
